A study of Mus musculus with 12 samples.

Results

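The genes described here are the mouse zinc finger genes whose symbol is Zfp followed by digits alone, in mouse erythroleukemia (MEL) cells with and without knockdown of the histone methyltransferase G9a. Members were chosen by symbol and by level: a probe set annotated to 1 such gene had to exceed log2 4 on at least 3 arrays out of 6, and the probe set with the highest mean stood for the gene. Of 304 Zfp-numbered genes with a probe set, 197 passed and 107 did not. Zfp644 was left out by the same rule. The 197 genes are part of 9025 genes with a tested probe set, and their probe sets are part of 17028 tested in all. The level that chose them is given as a description only.

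MEL cells are a line of leukemic red cell precursors from mouse, and dimethyl sulfoxide (DMSO) sets off their maturation. The labels name 3 wild type arrays and 3 G9a knockdown arrays, each group numbered 1 to 3, and every array was deposited in 2 summaries, GCRMA (log2 values) and MAS5 (linear intensity). Differentiation was with 2% DMSO over 4 days, and doxycycline at 5 µg/ml served to switch on the knockdown. The protocol fields give both groups the same treatment text and leave unsaid whether wild type cells also received doxycycline, which construct carried the knockdown and whether replicates were separate cultures. A p-value here covers only array-to-array spread, which may be technical.

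C2H2 zinc finger proteins form one of the largest families of DNA-binding proteins in mammals, and a numbered Zfp symbol often means only that the fingers were recognised from sequence. Many members carry a KRAB domain, which binds the corepressor TRIM28, and TRIM28 in turn brings the methyltransferase SETDB1, which trimethylates lysine 9 of histone H3 on the bound DNA. G9a, encoded by Ehmt2, places mono- and dimethylation on the same residue. A smaller share of Zfp-numbered genes encode unrelated proteins of RNA decay, ribosome assembly or ubiquitin transfer. KRAB zinc finger genes tend to lie in clusters of close relatives, so a probe set can also read a sister gene.

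The labels were checked first. The targeted gene was lower in every knockdown array at both of its probe sets, with log2 differences of −2.86 and −2.87 (limma adjusted p = 0.0278 and 0.0316, blocked on replicate number). The probe sets of 10 of 12 listed erythroid markers were tested, with means from 7.85 for Slc4a1 to 14.45 for Tfrc, and 0 were called. Of these 10, 6 had a positive and 4 a negative difference. Ermap differed by 0.74 with separate groups (limma adjusted p = 0.169) and Klf1 by 0.40 (limma adjusted p = 0.241), while Nfe2 differed by −0.30 and Tfrc by −0.23, the latter with separate groups. The summed linear level of the list was 66729 to 74051 on wild type and 68550 to 77325 on knockdown arrays, and the part of cell maturity in the members' values was not tested. Of other lineages, 1 of 10 myeloid markers passed the filter (Csf1r, at 6.50 ± 0.27 in wild type against 6.45 ± 0.12 in the knockdown, SD, n = 3 each), 2 of 7 megakaryocyte markers (Pf4 and Gp5), and none of 8 lymphoid or 8 fibroblast and endothelial markers. In bulk RNA, fewer cells of a type and less RNA per cell cannot be told apart.

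Most of the expressed zinc finger genes differed little between the groups. With the replicate number as a block, 100 of 197 were lower and 97 higher in the knockdown, and the median log2 difference was −0.0052, beside −0.0083 over all probe sets tested. The middle of the members' distribution was narrow: differences at the 10th and 90th percentiles were −0.25 and 0.22, against −0.28 and 0.26 for all probe sets. For 136 members (69.0%) the 95% interval lay wholly within 0.5 of zero on the log2 scale, against 62.4% of all probe sets. Only 4 members differed by more than 0.5 in either direction, and these were Zfp60, Zfp120, Zfp869 and Zfp719, all lower in the knockdown. The median difference was −0.033, 0.011 and 0.0044 within replicate numbers 1, 2 and 3.

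No member was called. In the limma fit with the block, 0 of 197 passed an adjusted p of 0.05, against 2 of 17028 probe sets (0.0117%), both for Ehmt2. The smallest adjusted p of a member was 0.149. At an unadjusted p under 0.05 there were 19 members (9.64%), against 13.7% of all probe sets, and 14.2% when each gene was read through 1 probe set. Of the 19, 14 were lower (7.11% of members, against 7.24% of probe sets) and 5 higher (2.54%, against 6.44%). Without the block the count was 6 members (3.05%, against 5.87%), and 0 passed after adjustment (against 0.00587%). In MAS5 with the block it was 15 (7.61%, against 10.6%), and 0 passed after adjustment. At an unadjusted p under 0.05 the members' share lay below that of the whole array in each of these 3 fits. When all 45037 probe sets other than controls entered the fit, 39 of the 197 members (19.8%) passed, against 8.62%. That comparison is of unlike sets, because the 45037 include probe sets below the filter and the members do not. The difference between these shares was not tested.

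All 3 knockdown arrays lay below all 3 wild type arrays for 10 members (5.08%, against 7.33% of probe sets) and above them for 6 (3.05%, against 5.04%). The gap between the groups was wider than 0.1 for Zfp60, Zfp120, Zfp869, Zfp687, Zfp318 and Zfp180, the last named after its values were seen (gap 0.17). The difference had 1 sign in all 3 replicate numbers for 40 members on the lower side (20.3%, against 20.6%) and 24 on the higher side (12.2%, against 17.3%). Across the members, differences within number 1 and within number 2 correlated at 0.27, within 1 and 3 at 0.12, and within 2 and 3 at 0.31. Over all probe sets these were 0.37, 0.21 and 0.26. Such correlations are across genes, which are not independent replicates.

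**Figure D1:**
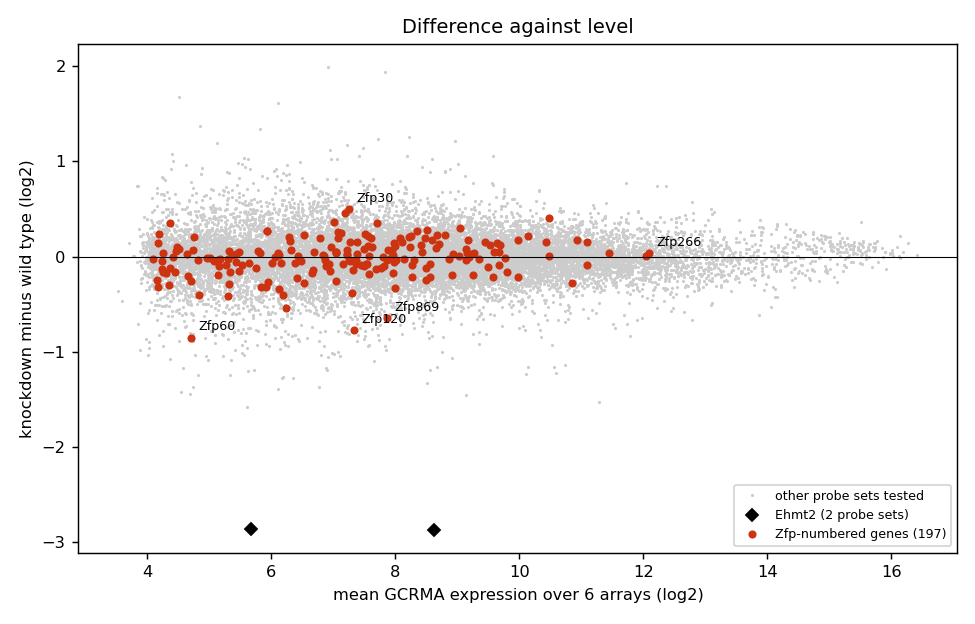
Difference between knockdown and wild type (log2, vertical axis) against mean GCRMA expression over the 6 arrays (log2, horizontal axis) for every probe set tested, with the 197 zinc finger genes in red and the 2 Ehmt2 probe sets as black diamonds. The red points stay within −0.85 and 0.50, and Zfp60, Zfp120 and Zfp869 lie lowest among them.

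Zfp60, Zfp120 and Zfp869 had the lowest p-values of all members, and each was lower in every knockdown array. Zfp60, a gene of the KRAB zinc finger group, read 5.19, 5.08 and 5.13 on wild type arrays 1 to 3, and 4.33, 4.31 and 4.19 on knockdown arrays 1 to 3. The groups were separated by 0.74, while the arrays within a group differed by 0.14 at most. The log2 difference was −0.85 (SE 0.097, 95% interval −1.10 to −0.61), or 1.81-fold lower, with an unadjusted p of 0.000224 and a limma adjusted p of 0.149. The knockdown level lies near the filter at log2 4, and in MAS5 the difference was −1.28. The part of background in either value was not tested. Leaving out any 1 replicate number gave −0.90 to −0.81, and the adjusted p ran from 0.0735 to 0.881 over all alternatives.

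Zfp120 read 7.69, 7.65 and 7.81 in the wild type arrays against 7.005, 6.82 and 7.01 in the knockdown arrays. Every knockdown array was lower than every wild type array by 0.64 or more. The difference was −0.77 (SE 0.096, interval −1.01 to −0.53), or 1.71-fold lower, with a limma adjusted p of 0.154. In MAS5 it was −0.51, and over all alternatives the adjusted p ran from 0.0771 to 0.942. Zfp869 read 8.30, 7.97 and 8.30 in the wild type arrays against 7.43, 7.41 and 7.79 in the knockdown arrays. Its groups were also separate, by 0.18. Its difference was −0.64 (SE 0.11, interval −0.93 to −0.36; limma adjusted p = 0.182), and −0.47 in MAS5. Each of the 3 genes was read by 1 tested probe set, so no second probe set bears on them.

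The promoter sequences of these 3 genes are shown because they are the members with the lowest p. They are the 250 bases before the annotated start, 5′ to 3′ on the gene's own strand, from RefSeq on GRCm38.p6. Capitals mark CCAAT (or ATTGG, its reverse complement) and ACTACA (or TGTAGT), motifs picked after these sequences were seen.
Zfp60 (chr7:27731159-27731408, plus strand): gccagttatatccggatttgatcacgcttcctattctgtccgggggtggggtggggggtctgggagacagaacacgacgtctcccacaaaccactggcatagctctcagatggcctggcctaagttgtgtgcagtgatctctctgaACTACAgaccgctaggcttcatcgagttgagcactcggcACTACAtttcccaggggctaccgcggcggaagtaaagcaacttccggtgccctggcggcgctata
Zfp120 (chr2:150136679-150136928, minus strand): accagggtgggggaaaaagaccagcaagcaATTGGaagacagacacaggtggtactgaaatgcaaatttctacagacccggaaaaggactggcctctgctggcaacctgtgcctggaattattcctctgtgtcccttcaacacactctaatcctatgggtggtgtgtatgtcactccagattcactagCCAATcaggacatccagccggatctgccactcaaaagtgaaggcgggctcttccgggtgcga
Zfp869 (chr8:69716903-69717152, minus strand): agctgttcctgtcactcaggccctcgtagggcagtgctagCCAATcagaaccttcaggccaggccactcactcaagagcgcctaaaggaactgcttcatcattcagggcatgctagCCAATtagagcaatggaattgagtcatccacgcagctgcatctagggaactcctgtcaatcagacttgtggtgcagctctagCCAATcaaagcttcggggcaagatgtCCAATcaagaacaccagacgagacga

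The 3 promoters held different motifs. The Zfp869 window had CCAAT 4 times and the Zfp120 window 2 times, on either strand, and the Zfp60 window had neither orientation of it and ACTACA 2 times. Counts of the dinucleotide CG were 14 for Zfp60, 5 for Zfp120 and 6 for Zfp869. Of the 197 members, 162 had a promoter in the table. CCAAT on either strand was in 77 of them (47.5%), against 37.6% of the 7469 promoters of genes with a tested probe set and 34.5% of all 27025 promoters. ACTACA on either strand was in 31 (19.1%), against 10.3% and 9.2%. Matches of both motifs can share at most an end letter. The median number of CG was 12 in members and 17 in promoters of genes with a tested probe set, with a GC content of 55.4% against 60.4%. Among the 18 members with a promoter and an unadjusted p under 0.05, CCAAT was in 10 (55.6%) and ACTACA in 3 (16.7%). The 3 genes whose sequences led to the choice of motifs are counted among the 162 and among the 18. The members' shares are therefore partly set by that choice. A match of letters is a description, and binding was not measured.

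Measured Zfp-numbered neighbours of these 3 genes differed by −0.18 to 0.35. In RefSeq gene order, Zfp60 has Zfp626 and Zfp59 next to it, which differed by 0.35 (unadjusted p = 0.0901) and 0.0013. Zfp850, also within 10 coding genes of Zfp60, differed by 0.029. Next to Zfp869 lie Zfp963, Zfp868 and Zfp866, with differences of −0.13, −0.080 and 0.11, and Zfp930, a little further away, differed by −0.18. None of these had an unadjusted p under 0.05 in the limma fit. Around Zfp120 no other Zfp-numbered gene within 10 coding genes was measured above the filter. Of all members, 113 had another Zfp-numbered gene within 2 coding genes and 84 had none. Those in such clusters had a median difference of −0.027, and 12 of them (10.6%) had an unadjusted p under 0.05, 9.73% on the lower and 0.885% on the higher side. Those outside had a median of 0.029, and 7 of them (8.33%) had such a p, 3.57% on the lower and 4.76% on the higher side. Over all probe sets the shares were 13.7%, 7.24% and 6.44%, and the difference between the classes was not tested.

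**Figure D2:**
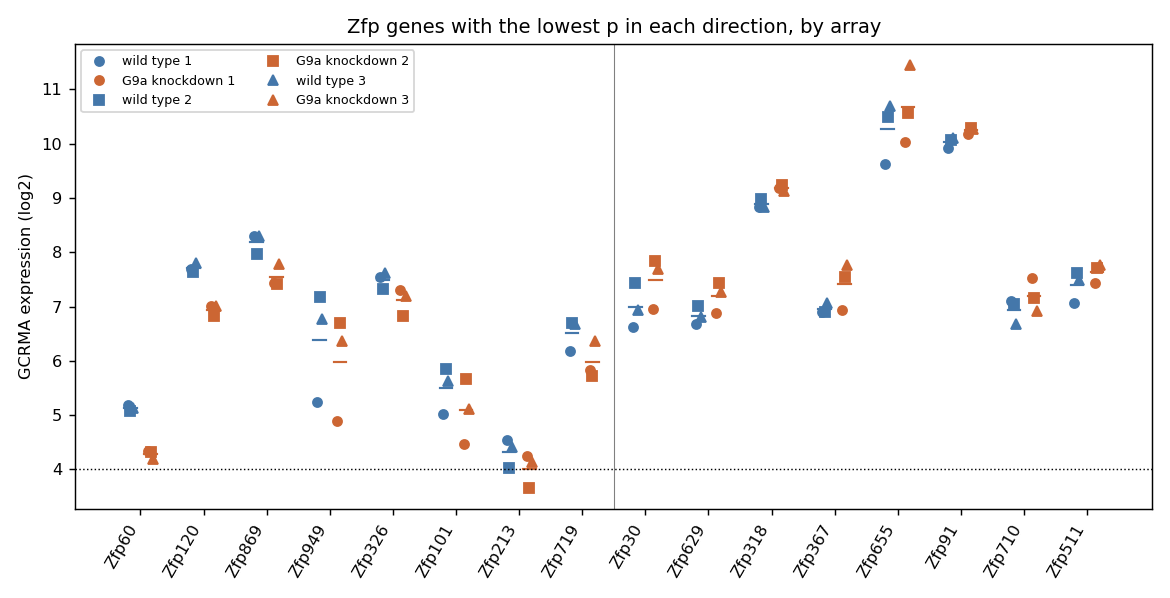
GCRMA expression (log2) in each of the 6 arrays for the 8 members with the lowest p among those lower in the knockdown (left of the vertical line) and the 8 among those higher (right). Blue marks wild type, orange the knockdown, symbols the replicate number, short lines the group means and the dotted line the filter at log2 4. Zfp60 and Zfp120 have tight, separate groups, whereas Zfp949 and Zfp655 are spread by replicate number.

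The other 5 members with the lowest p on the lower side differed by less. Zfp719 read 6.17, 6.70 and 6.67 in the wild type arrays against 5.83, 5.72 and 6.36 in the knockdown arrays, a difference of −0.54 (SE 0.16, limma adjusted p = 0.288). Its groups overlapped, because knockdown 3 lay above wild type 1, and without replicate number 2 the difference was −0.33. Zfp326 encodes a protein that links RNA polymerase II to messenger RNA splicing. It read 7.54, 7.32 and 7.62 in the wild type arrays against 7.31, 6.82 and 7.20 in the knockdown arrays, so its groups were separate by a gap of 0.0041, and the difference was −0.38 (limma adjusted p = 0.270) in GCRMA and −0.075 in MAS5. Without the block, its difference was −0.23 when knockdown 2 was left out. Zfp949, Zfp101 and Zfp213 differed by −0.41, −0.42 and −0.32 with overlapping groups. Without the block, Zfp101 ran from −0.70 without knockdown 2 to −0.11 without knockdown 1, and Zfp213 from −0.46 without wild type 2 to −0.14 without knockdown 2. Zfp949 read 5.23 in wild type 1 and 4.89 in knockdown 1 but 6.36 to 7.17 in the other 4 arrays. Its p depended on the block: the unadjusted p was 0.00671 with the block and 0.550 without it, its MAS5 difference was −0.074, and its other probe set differed by 0.22. Zfp213 lies at the filter, with 5 of 6 arrays above it.

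On the higher side the largest difference was that of Zfp30, a KRAB zinc finger gene. It read 6.63, 7.43 and 6.94 in the wild type arrays against 6.96, 7.84 and 7.69 in the knockdown arrays, with overlapping groups, and the difference was 0.50 (SE 0.12, limma adjusted p = 0.233) in GCRMA but 0.042 in MAS5. Zfp318, a nuclear factor needed for surface IgD in B cells, read 8.84, 8.99 and 8.83 in the wild type arrays against 9.19, 9.23 and 9.13 in the knockdown arrays. These groups were separate and tight, and the difference was 0.30 (SE 0.094, limma adjusted p = 0.302), 0.34 in MAS5 and 0.22 and 0.34 at its other probe sets. Zfp367, whose human counterpart was described as an activator of γ-globin, read 6.91, 6.90 and 7.07 in the wild type arrays against 6.94, 7.54 and 7.76 in the knockdown arrays. Replicate number 1 showed almost no difference there (0.038), and the mean difference was 0.46 (SE 0.16, limma adjusted p = 0.329). Zfp655 differed by 0.41 and Zfp629 by 0.37, both with overlapping groups. Without the block, Zfp655 ran from 0.021 without knockdown 3 to 0.73 without knockdown 1, and Zfp629 from 0.25 without knockdown 2 to 0.52 without knockdown 1. Zfp30 ran from 0.31 without wild type 1 to 0.77 without knockdown 1, and Zfp367 from 0.29 without knockdown 3 to 0.69 without knockdown 1. Zfp91, Zfp710 and Zfp511 completed the 8 on this side, with differences of 0.22, 0.25 and 0.24 and intervals that include 0.

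Zfp445, a KRAB zinc finger gene that keeps imprinting control regions methylated together with Zfp57, is named after its values were seen. It read 10.42, 11.40 and 11.16 in the wild type arrays against 10.15, 11.12 and 10.88 in the knockdown arrays. Within numbers 1, 2 and 3 knockdown minus wild type was −0.27, −0.27 and −0.28, nearly the same each time, while the arrays of a group ranged over 0.98 in wild type. The unadjusted p was 0.0277 with the block and 0.444 without it (limma adjusted p = 0.320 with it). Its other probe sets differed by 0.033 and −0.43.

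Members were then read by role. Among repressors and chromatin partners, 8 of 11 listed genes passed the filter, and 7 of the 8 had a negative difference. Of the 8, 0 were called and 0 had an unadjusted p under 0.05, against 13.7% of all probe sets. Their median difference was −0.15. Over all probe sets 51.7% of differences were negative, and the sign turned under at least 1 other setting for 23 of the 43 named members at an unadjusted p of 0.05 or more. Zfp687, which acts in a complex with ZMYND8, had separate groups: it read 8.67, 8.63 and 8.69 in the wild type arrays against 8.53, 8.48 and 8.33 in the knockdown arrays, a difference of −0.22 (interval −0.47 to 0.039). Zfp592, its partner in that complex, differed by −0.19 with overlapping groups, and by 0.019 without replicate number 1. Its other probe sets differed by −0.0011 and 0.074. Zfp335, Zfp516 and Zfp90 differed by −0.14, −0.16 and −0.17. Zfp217, a partner of the CoREST and LSD1 repressor complex, and Zfp568, a KRAB repressor of a placental Igf2 promoter, differed by −0.027 and −0.0081. The exception in sign was Zfp809, a KRAB gene that silences murine leukemia virus in embryonic stem cells, with 10.69, 11.38 and 10.98 in the wild type arrays against 10.83, 11.48 and 11.21 in the knockdown arrays (difference 0.16, interval −0.080 to 0.40). Zfp57, Zfp532 and Zfp462, the last a partner of G9a in stem cells, lay below the filter.

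Of 11 listed genes of RNA handling, translation and protein turnover, 10 passed the filter and 0 were called. Zfp313 was not matched to a probe set by symbol. The median difference was 0.059, with 2 of 10 negative, against 51.7% of all probe sets. The 1 member with an unadjusted p under 0.05 (10%, against 13.7% of all probe sets) was Zfp326, on the lower side. Zfp598, the ubiquitin ligase that recognises collided ribosomes, read 8.73, 8.60 and 8.76 in the wild type arrays against 8.80, 8.96 and 8.999 in the knockdown arrays, with separate groups and a difference of 0.22 (interval −0.039 to 0.49). Zfp91, another ubiquitin ligase, read 9.91, 10.06 and 10.10 against 10.17, 10.29 and 10.27, also with separate groups (difference 0.22, interval −0.015 to 0.46). The tested probe sets of Zfp91 had differences of both signs, with a gap of 0.24 between the lowest and highest. Zfp36, which encodes tristetraprolin and speeds the decay of AU-rich messenger RNA, ranged from 7.65 to 8.82 within wild type alone, and its difference was 0.19 (interval −0.14 to 0.52). Zfp622 and Zfp593, factors of the large ribosomal subunit, differed by 0.039 and 0.065, the RNA-binding Zfp106 and Zfp638 by 0.16 and 0.053, the splicing-associated Zfp830 by 0.027, and Zfp346, which binds double-stranded RNA, by −0.11.

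In mitosis and genome maintenance, 3 of 5 listed genes passed the filter and 0 were called. Zfp365 lay below the filter, and Zfp828 was not matched to a probe set by symbol. Zfp207, a kinetochore and spindle protein, was level at its brightest probe set. It read 12.11, 12.07 and 11.95 in the wild type arrays against 11.97, 12.15 and 12.02 in the knockdown arrays. Its difference was 0.0025, with an interval of −0.25 to 0.26. Its other probe sets differed by 0.17, −0.23 and −0.022, each with an interval that includes 0. Zfp451, a SUMO ligase, had separate groups and differed by 0.12 (interval −0.14 to 0.37). Zfp668, a DNA repair factor, differed by −0.32 (interval −0.84 to 0.19), with the opposite sign in number 3.

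Of 22 other transcription factors with described targets, 14 passed the filter, 12 of these with a positive difference, and the median was 0.15. Over all probe sets 51.7% of differences were negative. Under another setting the sign turned for Zfp148, Zfp219, Zfp263, Zfp292, Zfp410 and Zfp703, so no direction is read from the list. None was called, and Zfp318 alone had an unadjusted p under 0.05 (7.14% of the 14, against 13.7% of all probe sets). Zfp410, which drives the NuRD gene Chd4, read 9.30, 9.70 and 9.12 in the wild type arrays against 9.15, 9.59 and 9.85 in the knockdown arrays. Only number 3 was higher there, by 0.73, and the interval ran from −0.35 to 0.65. The pluripotency-linked Zfp281 differed by 0.17, Zfp131 by 0.18, Zfp219 by 0.14, Zfp292 by 0.12, Zfp263 by 0.042, Zfp148 by 0.035 and Zfp384 by 0.051. Zfp369 and Zfp110, relatives that bind the p75 neurotrophin receptor, had opposite signs (0.15 and −0.21). Zfp703 and Zfp503, paralogs of the NET family, also had opposite signs (0.21 and −0.20), with an interval of −0.61 to 1.02 for Zfp703. Zfp467 differed by 0.24 at a level close to the filter. Zfp42, Zfp296, Zfp423 and Zfp521 lay below the filter, and Zfp143, Zfp161, Zfp238 and Zfp260 were not matched to a probe set by symbol.

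**Figure D3:**
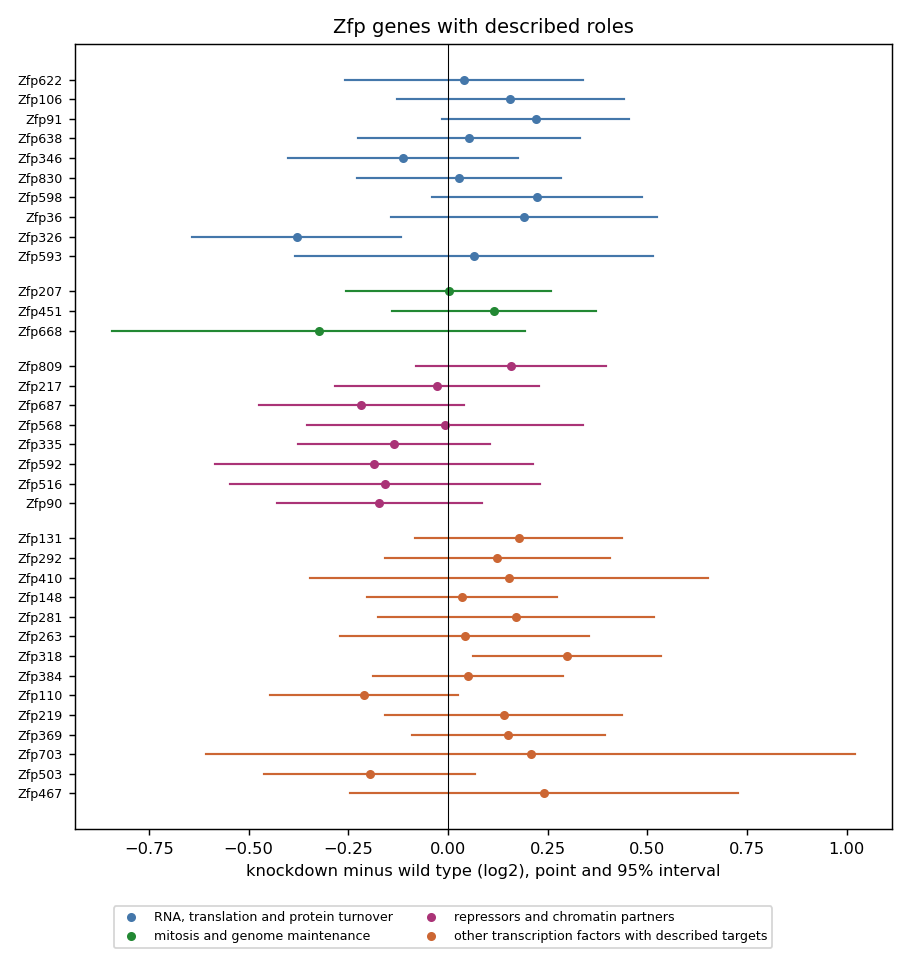
Difference between knockdown and wild type (log2, points) with the 95% interval of the blocked limma fit (lines) for the 35 members of the 4 role lists, coloured by list. All intervals include 0 except those of Zfp326 (lower) and Zfp318 (higher).

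The members also varied between replicate numbers, a pattern described after its values were seen. In 71 of 197 members (36.0%) the replicate 1 array read below both other arrays in wild type and again in the knockdown, against 18.5% of all probe sets and 18.0% of genes. In 24 members (12.2%) it read above both in both groups, against 26.1% of probe sets. Replicate 1 minus the mean of 2 and 3 had a median of −0.079 in wild type and −0.14 in the knockdown over the members, and 0.079 and 0.0047 over all probe sets. In MAS5, also added after the values were seen, 70 members (35.5%) lay below in both groups, against 19.7% of probe sets, and after quantile normalization of the tested probe sets 72 (36.5%), against 20.4%. The share was 22.2% in the 54 members with a mean from log2 4 to 6, 40.0% in the 80 from 6 to 8, 38.5% in the 52 from 8 to 10 and 63.6% in the 11 above 10, against 14.1%, 16.2%, 19.8% and 19.2% of genes at those levels. The members with the widest range over wild type arrays all had a low replicate 1. Besides Zfp949, Zfp692 read 4.797 in wild type 1 against 6.17 and 6.43, and 5.30 in knockdown 1 against 6.80 and 6.11. Zfp329 read 4.98 against 6.25 and 6.21, and 5.13 against 6.23 and 5.73. The labels do not say what a replicate number stands for, and its part in these levels was not tested.

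**Figure D4:**
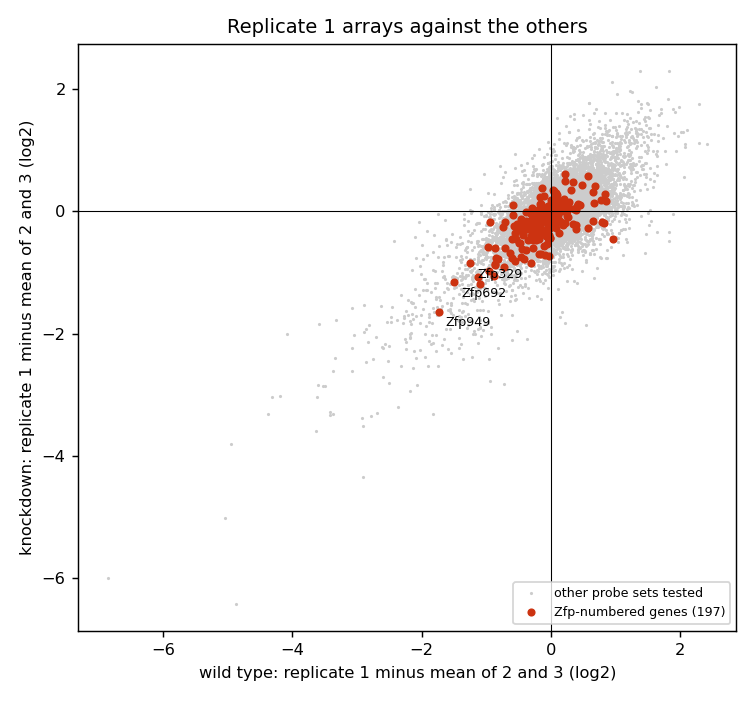
Replicate 1 minus the mean of replicates 2 and 3 (log2) in wild type (horizontal axis) and in the knockdown (vertical axis), for every probe set tested (grey) and the 197 members (red). The red points lean to the lower left quadrant, where 71 members have replicate 1 below both other arrays in both groups.

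The MAS5 summary and further probe sets of the same gene were used as checks. Of 197 members, 152 (77.2%) had the same sign in GCRMA and MAS5, against 79.4% of probe sets. All 19 with an unadjusted p under 0.05 kept their sign. These 19 were chosen by their GCRMA values, and the share among all probe sets at such a p is not given. The differences correlated at 0.72 across the members and 0.70 across all probe sets, and both summaries share the arrays. More than 1 tested probe set was present for 64 members, and in 28 of these (43.8%) the probe sets had differences of both signs. The widest gap was in Zfp148, with 6 probe sets between −0.27 and 0.45, the brightest of which differed by 0.035. In Zfp319 the brighter probe set differed by −0.15 and the dimmer by 0.54, and the dimmer one read 4.92, 5.52 and 5.602 on the wild type arrays and 5.54, 6.12 and 6.01 on the knockdown arrays. In Zfp292 the 5 probe sets ran from −0.43 at the dimmest to 0.25. The suffix of 10 members' probe sets is _x_at and that of 7 is _s_at, which Affymetrix uses where probes can match more than 1 transcript, so a near-identical relative may share those readings.

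**Figure D5:**
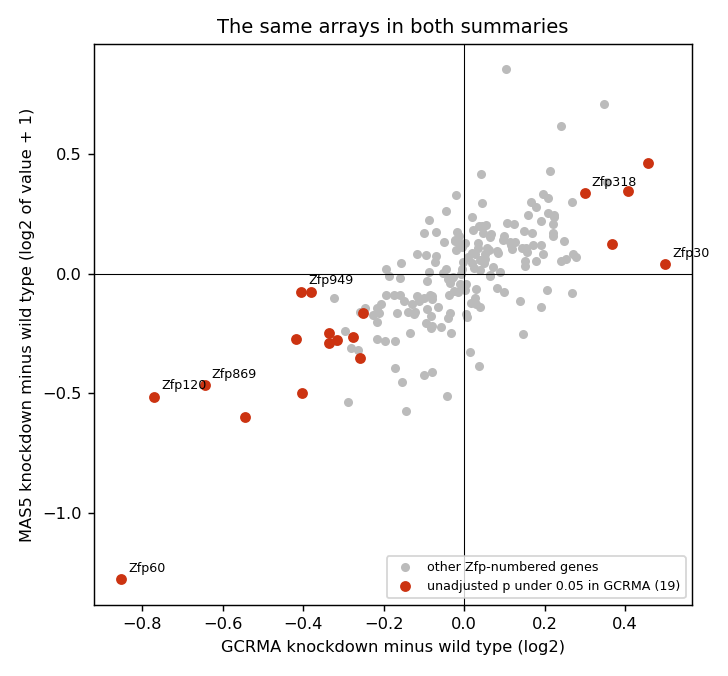
Difference between knockdown and wild type in MAS5 (log2 of value + 1, vertical axis) against GCRMA (log2, horizontal axis) for the 197 members, with the 19 at an unadjusted GCRMA p under 0.05 in red. Zfp60 is lowest in both summaries, at −0.85 and −1.28, while Zfp30, Zfp326 and Zfp949 lie near 0 in MAS5.

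The threshold left close neighbours on both sides. The members just inside, by the third highest of their 6 values, were Zfp759 (4.08), Zfp708 (4.09) and Zfp963 (4.18). Just outside were Zfp599 (4.00), Zfp41 (3.97) and Zfp324 (3.95). All 6 arrays read above log2 4 for 191 members, and 6 members had at least 1 array at or below it. No member passed through 1 group alone. The members' mean levels ran from 4.09 to 12.09, and levels of different probe sets cannot be ranked against each other. The 5 brightest probe sets belonged to Zfp266, Zfp207, Zfp622, Zfp809 and Zfp560. They differed by 0.040, 0.0025, 0.039, 0.16 and −0.084, each with an interval that includes 0. Zfp266 read 11.78, 12.24 and 12.20 in the wild type arrays against 11.98, 12.21 and 12.15 in the knockdown arrays.

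Genes of the KRAB corepressor pathway were listed together with other chromatin and DNA methylation genes. Of 24 listed genes, 21 had a tested probe set, 12 with a positive and 9 with a negative difference, and 0 were called. Cbx3 lay below the filter, and Fam208a and Sumo2 were not matched to a probe set by symbol. At an unadjusted p under 0.05 there were 4 (19%, against 13.7% of all probe sets): Uhrf1, Dnmt1, Chd4 and Cbx5. Each had a negative difference, beside 7.24% of all probe sets with such a p on the lower side. Trim28 averaged 12.15 ± 0.30 over wild type arrays and 12.24 ± 0.061 over knockdown arrays (SD, n = 3 each), with an interval of −0.29 to 0.48, and Setdb1 read 10.35 ± 0.068 and 10.24 ± 0.12 (−0.35 to 0.13). Uhrf1, which brings DNA methyltransferase to replicating DNA, differed by −0.87 (interval −1.11 to −0.63, limma adjusted p = 0.149) with overlapping groups. Its unadjusted p was 0.140 without the block, and the difference ran from −1.32 without knockdown 1 to −0.40 without wild type 1. The maintenance DNA methyltransferase gene Dnmt1, the NuRD gene Chd4 and the heterochromatin protein gene Cbx5 differed by −0.29, −0.25 and −0.26 (limma adjusted p of 0.317, 0.360 and 0.360). Without the block the unadjusted p of Dnmt1 was 0.246, and its difference ran from −0.45 without knockdown 1 to −0.094 without wild type 1. Chd4 ran from −0.32 to −0.14 when single arrays were left out, and its unadjusted p was 0.123 without the block. Cbx5 had separate groups and ran from −0.33 to −0.18.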

How the data were processed

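RNA from 6 Affymetrix arrays was analysed, 3 wild type and 3 G9a knockdown, each deposited in 2 summaries. Per the labels, the authors made log2 values with GCRMA and linear intensity values with MAS5; versions were not given in the sources used here. The deposited MAS5 intensities have a 2% trimmed mean of 500 on every array. Of 45101 probe sets, 64 controls were left out, and 17028 above log2 4 in at least 3 of 6 arrays were tested with limma 3.58.1 in R 4.3.3 (lmFit, eBayes, Benjamini-Hochberg adjustment over all of them, threshold 0.05), with the replicate number as a block. MAS5 was fitted as log2(value + 1). Precision is limited by 3 arrays per group. The rule for the members set this block, and the labels do not say that the numbers pair the arrays. Deviations from group means of arrays that share a number correlated at 0.72, 0.57 and 0.37, and those of other pairs at −0.59 to 0.17. Deviations within a group cancel out, so high values for shared numbers lower those of other pairs. That contrast is therefore partly built in.

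Gene names come from the supplied platform annotation (1 gene for 34958 probe sets, several for 932, none for 9211); gene order comes from RefSeq, GRCm38.p6, of which no coordinates are used except those of the printed promoters, each at its first listed start. Genes named in the text are members of 4 role lists, the 8 members with the lowest p in each direction and the 5 brightest. Also named are 3 on each side of the threshold, the 3 widest in wild type range and the 3 widest in probe set gap. The rest are Ehmt2, 4 genes of the corepressor and chromatin list by lowest p, and marker, neighbour and other genes named for a check. Members and lists were chosen with earlier results of these data known. The fit was tested on simulated data. Alternatives changed the block, summary, pseudocount, filter, scaling, array weights, probe set and replicates. Protein sequences were not used here.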

Additional observations from a re-analysis of the deposited data

How the results depend on the processing

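The count of 0 members called was the same under all 19 alternatives run. Over the whole array, the 2 called probe sets became 1 with no replicate block, 0 in MAS5 with either pseudocount (1 or 32) and with no filter, and 4 with the filter at log2 5, with array weights or with the mean of a gene's probe sets. Leaving out a replicate number gave 0 to 1, and leaving out a single array with no replicate block also 0 to 1. The 19 members at an unadjusted p under 0.05 became 6 with no replicate block and 39 with no filter. That alternative kept the same 197 members, and their share was 19.8% against 8.62% of all probe sets, the only one of the 19 in which it lay above. There all probe sets include those below the filter and the members do not, so the sets are unlike. Leaving out a replicate number gave 10 to 19, lowest without number 2. Leaving out single arrays with no replicate block gave 11, 7 and 4 without wild type 1, 2 and 3, and 10, 4 and 6 without knockdown 1, 2 and 3. The median difference of the members, −0.0052, ran from −0.033 without number 3 to 0.019 without number 1. With no replicate block it was −0.034 without wild type 1, 0.056 without knockdown 1 and −0.057 without knockdown 3. The cause of these shifts was not tested. In 43 named members at an unadjusted p of 0.05 or more, the sign turned in at least 1 alternative for 23, so no direction is read from them. Of 13 under it, the sign turned for Zfp949 alone, which differed by 0.14 without knockdown 1 and by −0.98 without wild type 1, both with no replicate block. The replicate block changed no call of a member. Levels near the filter limit what can be read from dim members.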
